A study of Mus musculus with 4 samples.

Results

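MHC class II and PD-L1 genes were examined in mammary tumour cells of MMTV-Neu mice labelled as having or lacking Pak1, a kinase activated by small GTPases. The set held 6 genes, namely H2-Aa, H2-Ab1, H2-DMa, Cd74, Ciita and Cd274, the last of which encodes PD-L1. They were taken by name from the non-control probes of the array, and each had a single probe. Thus 6 of the 39429 probes and 6 of the 31896 gene names or identifiers belong to the set. RNA of 4 samples was hybridised to single-colour Agilent mouse arrays. Of these, 2 were labelled Pak1-/- and 2 Pak1+/+, and every sample was kept without serum for 3 h and then given EGF for 15 min. All cells carried the Neu oncogene (the rat form of Her2) under the mouse mammary tumour virus promoter, which is active mainly in mammary epithelium. The study's methods call the cells tumour-derived cell lines. The design names separate tumours for the samples of a group, while the sample titles number the samples without naming a tumour. A p-value here measures the spread between the 2 samples of each group. The age and strain of the mice were not given in the sources used here.

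MHC class II molecules carry peptides from the endosome to the cell surface, where CD4+ T cells read them. H2-Aa and H2-Ab1 encode the α and β chains of the molecule called I-A, Cd74 encodes the invariant chain that fills its groove during assembly, and H2-DMa encodes a chain of the exchange factor that puts the peptide in place of the invariant chain remnant. Ciita is the coactivator that switches these genes on, through factors bound to the X and Y boxes of their promoters, in antigen-presenting cells at all times and in other cells after interferon-γ. PD-L1 is a surface ligand that restrains T cells through PD-1, is also raised by interferon-γ, and is found on many tumour cells.

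The labels were checked first on Pak1 itself. Its only probe measured 12.21 and 12.25 (normalized log2 intensity) on the arrays with the Pak1-/- label and 12.04 on both arrays with the Pak1+/+ label. It was thus not lower in the arrays with the Pak1-/- label, with a difference of 0.19 (limma adjusted p = 0.0700), and whether the probe lies in the deleted part of the gene was not given in the sources used here. Directions below therefore follow the labels. Signals were well above background for 62.2% to 70.4% of the probes of an array, and the median of the 153 negative control spots lay between 50.6 and 51.3 intensity units on every array.

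Among the 6 genes, Cd274 was higher and H2-Ab1 and Cd74 were lower in the arrays with the Pak1-/- label, H2-DMa and Ciita did not pass the test, and H2-Aa was not well above background anywhere. Thus 3 of the 5 genes that passed the filter on dim probes were called by limma at an adjusted p under 0.05, while over the whole array 51.9% of the 27229 probes tested were called (23.3% higher and 28.6% lower). A share of called genes near that background is not a result about the set. The sizes were unequal: the difference of H2-Ab1 was larger in absolute value than that of 98.6% of the probes tested, that of Cd274 larger than 94.0%, and that of Cd74 larger than 59.2%. The median difference of the 5 genes was -0.04, beside -0.05 over the 22014 genes tested.

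**Figure D1:**
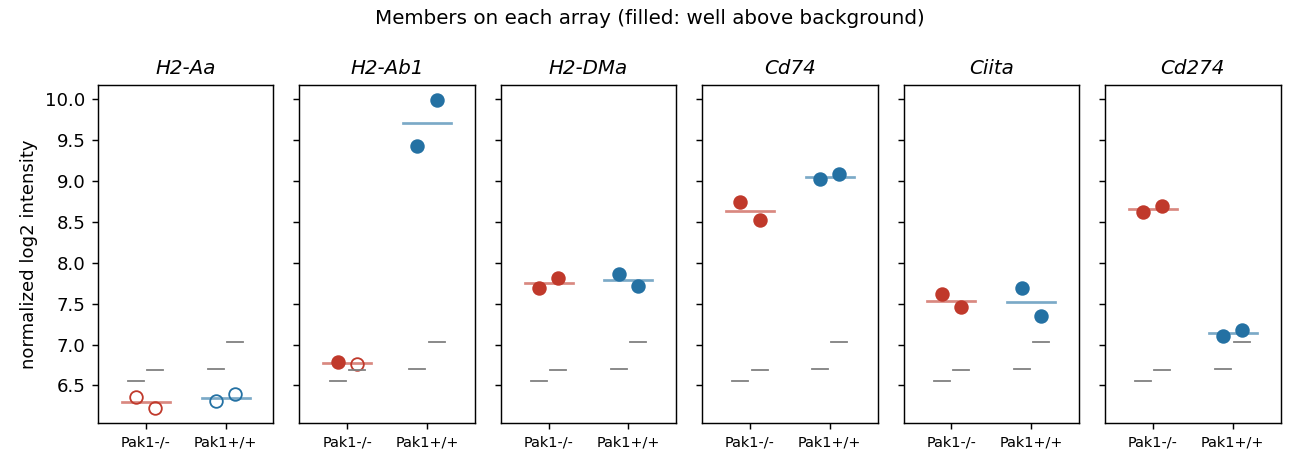
Normalized log2 intensity (vertical axis) of the 6 probes on each of the 4 arrays, with red points for arrays with the Pak1-/- label and blue points for arrays with the Pak1+/+ label. Filled points are well above background, long lines are group means and short grey lines mark the dimmest probe of each array that was well above background. The groups are apart for H2-Ab1, Cd74 and Cd274 and overlap for H2-Aa, H2-DMa and Ciita. Groups were also apart for 78.2% of the 27215 tested probes with 4 values. Levels of different probes cannot be compared.

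H2-Ab1 (probe A_55_P1962747, mm9 chr17:34406296-34406355), the β chain, measured 6.79 and 6.77 on the arrays with the Pak1-/- label and 9.43 and 9.98 on those with the Pak1+/+ label. The groups were far apart, with the Pak1-/- replicates nearly equal and the Pak1+/+ replicates less alike. The means were 6.78 ± 0.01 and 9.70 ± 0.40 (SD, n = 2 each), which put the log2 difference at -2.93 (SE 0.20, limma adjusted p = 0.000666). This corresponds to a level 7.62-fold lower, with a 95% interval of 5.33-fold to 10.9-fold. In raw spot intensity, before any correction, the probe gave 98.2 and 89.4 against 672 and 945. The low group was close to the edge of detection: of the arrays with the Pak1-/- label, the probe was well above background on the first and not on the second, although both values exceeded the 95th percentile of the negative control spots of their arrays (70.7 and 76.6). The difference reached -3.72 without the offset of 50 that was added to the intensities, and -4.36 with the scanner's own background-subtracted signal, so its size depends on the background correction.

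A probe that the array lists under another name, LOC641240, reads almost the same bases and served as a further reading of the β chain. It was noticed after the values were known. It lies on mm9 at chr17:34406305-34406364, starts 9 bases further along, and shares 51 bases with the H2-Ab1 probe except for 1 difference. The stretches of 30 bases around that difference, which is capitalised, are shown because both probes may take up the same transcript:
H2-Ab1 probe, bases 31 to 60: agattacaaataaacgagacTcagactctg
LOC641240 probe, bases 22 to 51: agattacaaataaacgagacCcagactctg
The LOC641240 probe measured 7.16 and 7.10 on the arrays with the Pak1-/- label and 9.03 and 9.79 on those with the Pak1+/+ label. On every array it was well above background, and its groups did not overlap, as was the case for 78.2% of the tested probes. Its difference was -2.28 (SE 0.26, limma adjusted p = 0.00263), or 4.84-fold lower in the arrays with the Pak1-/- label, and it reached -2.80 without the offset and -3.24 with the processed signal. The direction was therefore that of the H2-Ab1 probe, but because the probes overlap they are not independent measurements.

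H2-Aa (probe A_52_P343306, mm9 chr17:34421285-34421344), the α chain that pairs with the β chain, measured 6.36 and 6.23 on the arrays with the Pak1-/- label and 6.30 and 6.39 on those with the Pak1+/+ label. It was not well above background on any of the 4 arrays, so it was not tested and no fold is given. Its raw intensities were 64.9, 61.8, 63.7 and 69.0, all below the 95th percentile of the negative control spots (70.7, 76.6, 74.8 and 87.6 in the same order). In the arrays with the Pak1+/+ label, the β chain was thus measured well above background while its partner's probe was not. A low transcript and a probe that reads it poorly cannot be told apart.

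The promoter of H2-Aa, which RefSeq gives at chr17:34287774-34288073 on the minus strand of GRCm38.p6, is printed to show the boxes through which class II genes are known to be switched on. The capitals mark TGACGTCA, the core of the X2 box, which is also the site bound by CREB, and CTGATTGG, the core of the Y box, which holds an inverted CCAAT:
H2-Aa promoter, 250 bases before to 50 after the start: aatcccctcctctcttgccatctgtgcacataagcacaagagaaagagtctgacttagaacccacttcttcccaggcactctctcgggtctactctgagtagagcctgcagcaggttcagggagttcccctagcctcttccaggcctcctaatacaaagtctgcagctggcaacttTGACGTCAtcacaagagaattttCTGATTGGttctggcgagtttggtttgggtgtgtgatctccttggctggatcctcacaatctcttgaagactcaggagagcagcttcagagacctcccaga
The X2 core begins at -74 and the Y core at -51, counted from the start, with 15 bases between them. Searched on both strands, the X2 core was found in 1.79% and the Y core in 4.1% of 32851 promoters of this length, and both together in 0.0852% of them. The letters are a description and say nothing of whether the promoter was in use in these cells.

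Cd74 (probe A_51_P284608, chromosome 18), the invariant chain, measured 8.75 and 8.52 on the arrays with the Pak1-/- label and 9.03 and 9.08 on those with the Pak1+/+ label. The groups did not overlap, as was also the case for 78.2% of the 27215 tested probes with 4 values. The means were 8.63 ± 0.16 and 9.05 ± 0.04 (SD, n = 2 each), a difference of -0.42 (SE 0.10, limma adjusted p = 0.0245), which is 1.34-fold lower with an interval of 1.11-fold to 1.61-fold. The call depended on the setting. It was lost with scaling to the 75th percentile (-0.39, limma adjusted p = 0.0572), with the scanner's processed signal (-0.45, limma adjusted p = 0.0958), and without the second sample labelled Pak1-/- (-0.31, limma adjusted p = 0.0564) or either sample labelled Pak1+/+ (-0.45 and -0.40, limma adjusted p = 0.0710 and 0.0954). Where a sample was left out, here and below, its group held 1 sample, which was assumed to vary like the other group, and without either Pak1+/+ sample the difference itself stayed close to -0.42.

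H2-DMa (probe A_51_P473734, mm9 chr17:34274300-34274863), the α chain of the peptide exchange factor, measured 7.69 and 7.82 on the arrays with the Pak1-/- label and 7.87 and 7.72 on those with the Pak1+/+ label. The 60-base probe is spread over 564 bases of the genome in the file. The groups overlapped. The difference was -0.04 (SE 0.09, limma adjusted p = 0.767), with a 95% interval from -0.28 to 0.21, so a change larger than 1.21-fold lower or 1.15-fold higher lay outside the interval.

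Ciita (probe A_55_P2179074, mm9 chr16:10526568-10526627), the coactivator of class II genes, measured 7.62 and 7.45 on the arrays with the Pak1-/- label and 7.69 and 7.35 on those with the Pak1+/+ label. The replicates of each group differed by more than the group means did, and the groups overlapped. The means were 7.54 ± 0.12 and 7.52 ± 0.24 (SD, n = 2 each), a difference of 0.02 (SE 0.14, limma adjusted p = 0.926). The 95% interval ran from -0.35 to 0.39, or from 1.28-fold lower to 1.31-fold higher.

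The Ciita value rests on an unusual probe. It holds 8 CAAAA units, more than any other of the 39429 probes (the next highest count was 5, and 10.7% of the probes had any). Its first 30 bases are printed to show the repeat, in capitals:
Ciita probe, bases 1 to 30: gccccatctaatgCAAAACAAAACAAAAcg
Such a repeat occurs in other probes too: 12 shared a run of 15 bases with it and 3 a run of 20. Of these 3, Cbln2 ranged from 7.69 to 8.06 without passing the test (-0.16, limma adjusted p = 0.309), Tenm1 from 6.99 to 7.11 (0.05, limma adjusted p = 0.595), and Prg4 was not well above background. How much of the signal of the Ciita probe comes from Ciita was not tested.

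Cd274 (probe A_51_P248666, mm9 chr19:29462363-29462422), which encodes PD-L1, measured 8.61 and 8.69 on the arrays with the Pak1-/- label and 7.11 and 7.18 on those with the Pak1+/+ label. The replicates of each group lay close together and the groups were far apart. The means were 8.65 ± 0.06 and 7.15 ± 0.05 (SD, n = 2 each), a difference of 1.51 (SE 0.08, limma adjusted p = 0.000318), or 2.84-fold higher with an interval of 2.48-fold to 3.26-fold. The raw spot intensities were 377 and 408 against 121 and 134, and the probe was well above background on all 4 arrays. The difference grew to 1.94 without the offset and to 2.35 with the scanner's processed signal. The direction was thus opposite to that of H2-Ab1, on the same arrays.

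**Figure D2:**
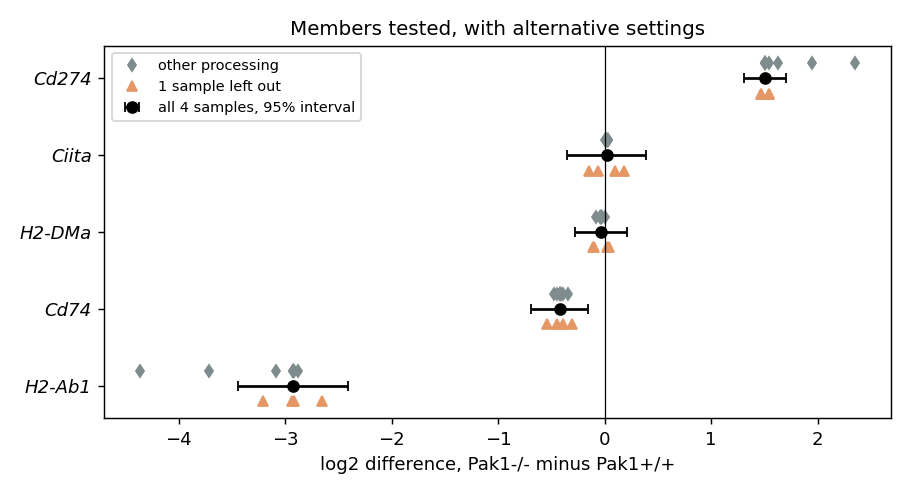
Log2 difference (horizontal axis), arrays with the Pak1-/- label minus arrays with the Pak1+/+ label, for the 5 genes tested. Black points with bars are the estimates from all 4 samples with 95% intervals, grey diamonds are other processing settings and orange triangles leave out 1 sample. H2-Ab1 lies below 0 and Cd274 above 0 under every setting, while Ciita and H2-DMa lie on both sides of 0.

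The Cd274 promoter (RefSeq, GRCm38.p6, chr19:29367188-29367487, plus strand) is printed for comparison with that of H2-Aa:
Cd274 promoter, 250 bases before to 50 after the start: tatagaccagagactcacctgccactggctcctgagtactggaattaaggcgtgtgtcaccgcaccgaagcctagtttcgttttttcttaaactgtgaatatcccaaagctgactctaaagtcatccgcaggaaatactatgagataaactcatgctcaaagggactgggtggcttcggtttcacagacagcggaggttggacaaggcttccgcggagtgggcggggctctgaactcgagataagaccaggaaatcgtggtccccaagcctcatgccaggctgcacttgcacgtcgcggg
It held neither the X2 core nor the Y core, and neither a GAS element (TTCNNNGAA, in 8.3% of promoters) nor an IRF repeat (GAAA, any 2 bases, GAAA, in 3.44%) on either strand of this window. Among the other class II genes with a promoter in the table, the Y core stood in those of H2-Eb1, H2-Eb2 and H2-Oa. None of the 4 motifs was found in the windows of H2-DMa, H2-DMb1 and H2-Ob, and that of H2-DMb2 held a GAS element.

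The counts of called genes in the lists that follow are to be read against all genes tested, of which 51.0% were called, 22.8% higher and 28.2% lower. The other class II genes did not move as a block. Of 7, 5 passed the filter, 3 were higher, 1 was lower and 1 did not pass the test, with a median of 0.39. A filter on all 4 arrays left H2-DMb1 as the 1 higher gene and 0 lower. H2-DMb1, the β chain of the exchange factor and partner of H2-DMa, measured 12.95 and 12.94 on the arrays with the Pak1-/- label and 11.89 and 12.11 on those with the Pak1+/+ label. It was higher by 0.95 (SE 0.10, limma adjusted p = 0.00197), while the probe of H2-DMa did not pass the test. H2-Oa, a chain of the inhibitor of that factor, measured 7.48 and 8.32 against 6.53 and 6.15. It was not well above background in the arrays with the Pak1+/+ label and passed the filter only through the others. With that limit it was at least 2.05-fold higher in the arrays with the Pak1-/- label (limma adjusted p = 0.0138). H2-Eb1, the β chain of the second class II molecule I-E, was higher by 0.39 (limma adjusted p = 0.0443). Its probe was dim, well above background on only 1 of the arrays with the Pak1+/+ label. The call held in 6 of 12 other settings, with differences from 0.277 to 0.841 over them. H2-Eb2 was lower (-0.57, limma adjusted p = 0.0165), but was well above background on only 1 array of each group. The call was lost without either sample labelled Pak1-/-, while the difference stayed below 0 in all 12 other settings (-1.3 to -0.415). H2-Ob did not pass (-0.13, limma adjusted p = 0.240), and H2-Ea and H2-DMb2 were well above background on no array.

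On the chromosome, class II genes lie among genes of class I presentation. From H2-K1 to Notch4, in the order RefSeq gives, all 5 genes of class I presentation were higher in the arrays with the Pak1-/- label, with a median of 2.46. In the same stretch 7 of 9 class II genes were tested, of which 3 were higher and 2 lower, with a median of -0.04. Of the 12 other genes there, 10 were tested, of which 2 were higher and 1 lower. H2-Ab1 lies between H2-Ob, which did not pass the test, and the untested H2-Aa, and the gene beyond H2-Ob is Tap2, which was 2.07 higher (limma adjusted p = 0.000197).

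**Figure D3:**
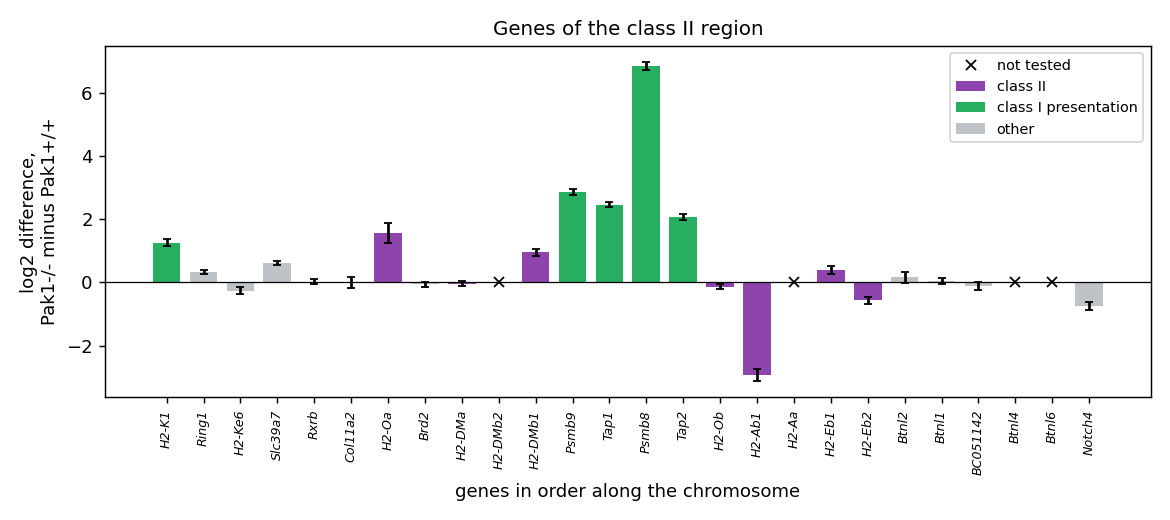
Log2 difference (vertical axis), arrays with the Pak1-/- label minus arrays with the Pak1+/+ label, of the genes from H2-K1 to Notch4 in chromosome order (horizontal axis, not to distance). Bars are estimates with standard errors, in purple for class II genes, green for class I presentation and grey for others, and crosses mark genes not tested. The 5 green bars point up, and the purple bars point both ways.

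Of 7 factors that bring Ciita to the X and Y boxes, all tested, 3 were higher, 3 lower and 1 did not pass, with a median of -0.11. Calls in both directions were also common among all genes tested (22.8% higher and 28.2% lower). Nfyc (0.69), Rfx5 (0.48) and Creb1 (0.35) were higher by their brightest probe, and Nfyb (-0.72), Rfxap (-0.50) and Nfya (-0.33) were lower, with limma adjusted p from 0.00151 to 0.0237. NF-Y, which binds the Y box, therefore had 1 subunit higher and 2 lower. The probes of Creb1 disagreed, since its other probe, well above background on every array, was lower (-0.39, limma adjusted p = 0.0359). With single samples left out the calls of Nfya and Creb1 were lost, although over all alternatives their differences stayed between -0.37 and -0.251 and between 0.295 and 0.45.

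Enzymes and helpers of the endosome, where class II meets its peptides, were mostly higher. A probe was found by name for 7 of 9 such genes. March1 and March8 were not found under these names, which does not show that the array lacks them. Of the 7, 6 were higher, none was lower at this threshold and 1, Ctsl, did not pass (-0.19, limma adjusted p = 0.0815). Ctsd, a lysosomal protease, rose by 1.47 (limma adjusted p = 0.00035) and Lgmn, the asparaginyl endopeptidase, by 0.85 (limma adjusted p = 0.000978). Ctss, the cathepsin that cuts the invariant chain in antigen-presenting cells, measured 7.51 and 7.25 against 6.30 and 6.22 and was at least 1.43-fold higher (limma adjusted p = 0.0018). The median of the list was 0.51, beside -0.05 over all genes tested, of which 22.8% were called higher.

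Of 10 genes of the pathway from interferon-γ to Ciita and PD-L1, 9 were tested, with 5 higher, 1 lower and 3 not passing, and a median of 0.89. Over all genes tested 22.8% were called higher and 28.2% lower. Irf1, a factor that acts on the promoters of Ciita and of Cd274, was 1.18 higher by its brightest probe (limma adjusted p = 0.00147). Its other probe, not well above background in the arrays with the Pak1+/+ label, did not pass (limma adjusted p = 0.302). Socs1 and Jak1 were each 1.35 higher. Ifng itself was not well above background on any array, and Ifngr1, Jak2 and Irf2 did not pass the test.

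Irf8, a factor of the myeloid and B lineages, went the other way. It measured 6.44 and 6.58 on the arrays with the Pak1-/- label, not well above background, and 12.10 and 11.84 on those with the Pak1+/+ label, at least 40.8-fold lower in the former (limma adjusted p = 5.98e-05). H2-Ab1 and Irf8 were thus both low in the arrays with the Pak1-/- label, and whether they are related was not tested.

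The class I counterparts moved together. All 9 genes of that list were tested and higher, with a median of 2.28. They included Nlrc5, the class I counterpart of Ciita, which measured 10.74 and 10.49 on the arrays with the Pak1-/- label and 6.48 and 6.52 on those with the Pak1+/+ label, at least 13.4-fold higher (limma adjusted p = 8.37e-05). Its other probe was 0.88 higher (limma adjusted p = 0.00715). Psmb8, a subunit of the immunoproteasome, was 6.85 higher (limma adjusted p = 4.68e-05), and B2m, the light chain of class I, 1.78 higher (limma adjusted p = 0.000512). The difference between Nlrc5 and Ciita was not tested.

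Ligands that act on T cells beside PD-L1 were also compared. Of 17 such genes 16 had a probe and 14 were tested, with 8 higher, 2 lower and 4 not passing, and a median of 0.44, where 22.8% of all genes were called higher and 28.2% lower. Pdcd1lg2, which encodes PD-L2, the second ligand of PD-1, had a pair of dim probes that leaned in opposite directions. The probe that passed the filter measured 6.98 and 6.82 against 6.65 and 6.74. It was not well above background in the arrays with the Pak1+/+ label and did not pass the test (limma adjusted p = 0.125). The other, brighter on average but well above background on only 1 array, measured 6.49 and 6.77 against 7.57 and 7.05 and was not tested. Vsir (3.29, limma adjusted p = 6.18e-05), Lgals9 (2.50, limma adjusted p = 0.00021), Cd200 (2.40, limma adjusted p = 9.64e-05) and Cd276 (0.86, limma adjusted p = 0.00112) were the 4 largest increases. The Vsir probe was well above background on only 1 of the Pak1+/+ arrays, so its size depends on the background correction (3.26 to 4.56 over all alternatives), and the other Vsir probe gave only a bound, at least 5.39-fold higher. The costimulatory genes Tnfsf9 (-2.36, limma adjusted p = 0.000147) and Cd40 (-0.77, limma adjusted p = 0.0134) were lower, and Cd40 lost the call without the second Pak1-/- sample (limma adjusted p = 0.068, with -0.938 to -0.605 over all alternatives). Cd80 did not pass the test, and Cd86 and Tnfsf4 were not well above background.

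Among genes that handle the PD-L1 protein, Cmtm6, which keeps PD-L1 at the cell surface, was 0.39 higher (limma adjusted p = 0.0129) and its relative Cmtm4 lower (-0.58, limma adjusted p = 0.0137). Zdhhc9, an enzyme that attaches palmitate to PD-L1, was 0.31 higher, and Spop, an adaptor for its degradation, lower (-0.26), each by its brightest probe only, while the other probe of Zdhhc9 (-0.02) and those of Spop (0.09 and 0.01) did not pass. Pdcd1, which encodes PD-1, was not well above background. Together 2 of the 5 tested were higher and 2 lower, with a median of -0.01, and each of these calls except that of Cmtm4 was lost in some fits with a sample left out. That of Spop held in 5 of 13 alternatives, being lost also with cyclic loess, without a filter, in the authors' values and with the replicate block, and that of Zdhhc9 in 8, being lost also with the processed signal. Over all alternatives their differences kept their direction, at 0.33 to 0.487 for Cmtm6, 0.251 to 0.396 for Zdhhc9 and -0.302 to -0.174 for Spop.

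**Figure D4:**
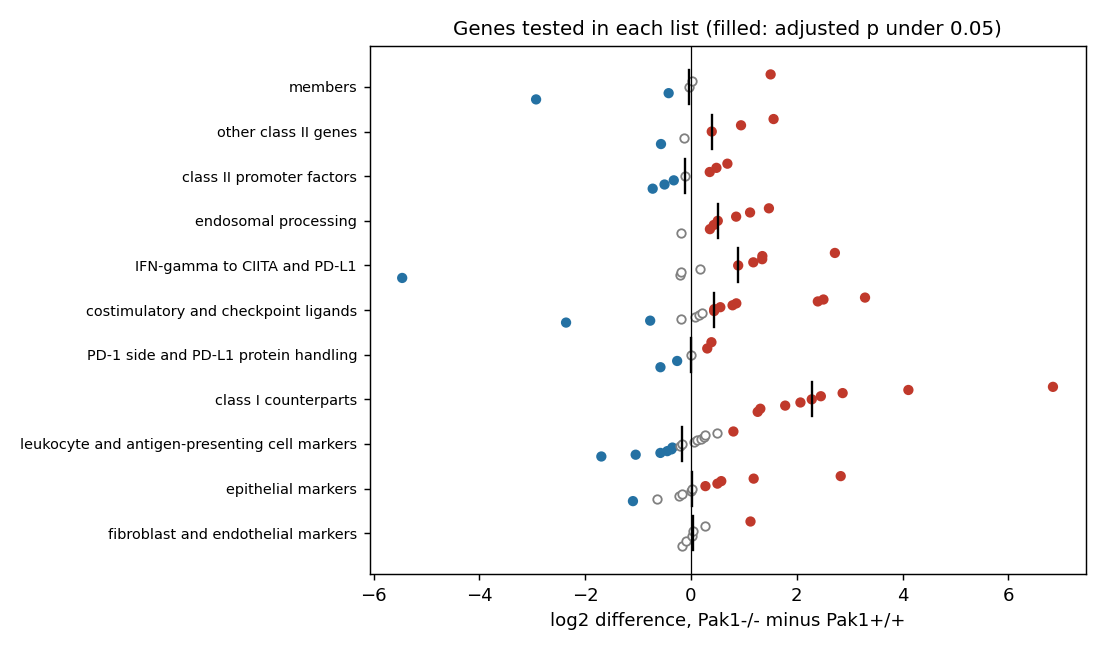
Log2 difference (horizontal axis), arrays with the Pak1-/- label minus arrays with the Pak1+/+ label, of every tested gene of each list. Filled points passed a limma adjusted p of 0.05, in red for higher and blue for lower, open points did not, and vertical bars are list medians. The 9 class I counterparts are all to the right of 0, and the class II and PD-L1 genes spread from -2.93 to 1.51.

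Genes beside Cd274 and Ciita on the chromosome were compared as well. Of the 16 nearest Cd274, 14 were tested, with 1 higher and 4 lower. The flanking genes Plgrkt (-0.14, limma adjusted p = 0.205) and Pdcd1lg2, by its tested probe, did not pass the test. Of the 16 nearest Ciita, 11 were tested, with 7 higher and 2 lower, among them Dexi (1.20 higher, limma adjusted p = 0.000604) directly beside it. Over all genes 51.0% were called, so nothing is read from these counts.

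Genes whose pattern over the 4 arrays came closest to each member were found by the root mean square distance between centred log2 values, over 22000 genes. For H2-Ab1 they were D630004K10Rik (0.122) and Paqr6 (0.130), for Cd74 Crlf3 (0.0104) and 2810008D09Rik (0.0119), and for Cd274 Bsdc1 (0.0109) and Nfil3 (0.0152). For H2-DMa and Ciita, which varied little, the closest were probes without a gene symbol of their own, apart from Nupr1l (0.00953) for H2-DMa. Over 4 arrays such closeness is a description only.

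Markers of antigen-presenting cells were examined because class II is best known from these cells. Of 26 leukocyte and antigen-presenting cell markers, 15 were tested, with 1 higher, 6 lower and 8 not passing, and a median of -0.16. The 7 called of 15 stand beside 51.0% of all genes, so the count is near the background. The 7 markers Cd53, Laptm5, Tyrobp, Itgax, Lyz2, Ms4a1 and Cd3g were well above background on no array. Others were measured: Ptprc, the leukocyte common antigen, stood at 7.15 and 7.14 against 7.59 and 7.60 (-0.45, limma adjusted p = 0.00559), and Adgre1, a macrophage marker, at 7.47 and 7.48 against 8.44 and 8.60 (-1.05, limma adjusted p = 0.00109). Cd14 (-1.70, limma adjusted p = 0.000545) and Batf3 (-0.58, limma adjusted p = 0.00378) were lower too, while Aif1 was 0.80 higher (limma adjusted p = 0.0239), a call lost without the first Pak1-/- or the first Pak1+/+ sample (0.56 to 1.04 over all alternatives). The linear levels summed over the list's probes, a description of each array that a few bright probes (Siglech, Cd14 and Itgam) dominate, were 315438 to 380137 in the arrays with the Pak1-/- label and 394810 to 416711 in those with the Pak1+/+ label. The other Siglech probe was well above background on no array. The part of these markers in the differences of H2-Ab1 and Cd74 was not tested. In such bulk RNA, fewer cells of a type and less RNA per cell cannot be told apart.

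Of 11 epithelial markers, 10 were well above background on all 4 arrays, and Krt19 was so on 3. Epcam measured 15.01 to 15.33 over the 4 arrays without passing the test (-0.23, limma adjusted p = 0.0578), and all 11 markers of the list were tested, with 5 higher, 1 lower and a median of 0.02. Krt14, a basal keratin, was 2.83 higher (limma adjusted p = 7.7e-05) and Krt7 lower (-1.10, limma adjusted p = 0.000564). Of 11 fibroblast and endothelial markers, 5 were well above background on no array, and among the 6 tested Col1a1 was 1.12 higher (limma adjusted p = 0.00512). Kdr did not pass by its brightest probe (0.04). Its other probe, not well above background in the arrays with the Pak1+/+ label, was at least 2.17-fold higher in those with the Pak1-/- label.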

How the data were processed

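The authors deposited scanner output, that is linear intensities and flags of each spot, made with Agilent Feature Extraction 9.5 (9.5.3.1 per the file headers). Processed log2 values of these arrays, normexp corrected and quantile normalized, were deposited by the authors as well. They filled 24008 of 39485 rows and were used as an alternative. Human samples of the study were not analysed here.

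Starting from the scanner files, mean signals were background corrected in limma 3.58.1 (R 4.3.3) with normexp and an offset of 50, 43020 non-control spots were quantile normalized on the log2 scale, spots flagged as outliers were set aside, and spots of a probe were averaged. Offset, filter and threshold were set here. The offset understates changes of dim probes. Probes were kept where 2 or more arrays showed them well above background (27229, 69.1%) and were compared with limma (lmFit and eBayes, two-sided, genotype as the only term, 2 residual and 2.62 prior degrees of freedom), with Benjamini-Hochberg adjustment over all of them and a threshold of 0.05. The script was tested on simulated data. With 2 samples a group the smallest p of an exact permutation test is 0.333, so none was run, and the number of arrays limits the precision. All 4 arrays lay on 1 slide.

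The brightest probe that passed the filter stood for a gene (the brightest of all where none passed). Among list genes this left out a brighter, untested probe only for Pdcd1lg2. For a probe dim on both arrays of 1 group the fold is a bound: the other group's mean over the mean of, per array, the higher of its own value and that of the dimmest probe well above background. Such a probe passed the filter only through the other group. Accessions of 26055 of 32334 probes matched a RefSeq table of GRCm38.p6, which gave names (Vsir is 4632428N05Rik and Tenm1 is Odz1 on the array), gene order and promoters. Probes without a match kept the array's own name or identifier, and these are counted among the genes. Promoters were matched for 3 of the 6 members and 8 of 10 class II genes. Coordinates of probes were copied from the scanner files (mm9).

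The members and the gene lists were chosen with earlier results of these data known. Besides the members, the text names from each list at most the 4 genes with the largest changes past the threshold in each direction, partners and cell-type markers not above background, Pak1, and the 2 genes most alike each member; genes named beyond this rule were chosen after their values were seen, and 1 gene is not reported here. The alternatives were other background corrections, scalings, filters and priors, the authors' table, a replicate block and leaving out each sample.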

Additional observations from a re-analysis of the deposited data

How the results depend on the processing

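H2-Ab1 and Cd274 kept their direction and their call under every alternative that gave a value: -4.36 to -2.65 for H2-Ab1 over 12 (limma adjusted p 0.000221 to 0.0118) and 1.47 to 2.35 for Cd274 over 13 (limma adjusted p 0.000143 to 0.00609). Leaving out 1 sample gave -3.21 to -2.65 and 1.47 to 1.55. With the filter on all 4 arrays H2-Ab1 was not tested, and H2-Aa was tested only without a filter (-0.05, limma adjusted p = 0.692). Cd74 kept its direction in all 13 and its call in 8. It lost the call with the processed signal (-0.45), with normexp and the 75th percentile (-0.39), and in 3 of 4 cases with a sample left out (range -0.54 to -0.31, with the lone sample of a group assumed to vary like the other group), and the cause was not tested. H2-DMa turned to 0.0060 with cyclic loess and ran from -0.11 to 0.038 with a sample left out, and Ciita from -0.15 to 0.19. None of these passed. The mean over a gene's probes could not differ, since each member had 1 probe.

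Replicate numbers were not tied to a shared batch by the labels, and the replicate differences of the groups correlated at -0.028 over 27229 probes. With a replicate block, the differences were unchanged, 13211 probes passed in place of 14132, and Cd74 had a limma adjusted p of 0.0355. The block left 1 lower gene for PD-L1 handling, 2 higher other class II genes and 4 higher epithelial markers, and gave 2 higher leukocyte markers. Over all alternatives 10307 to 14578 probes passed, and cyclic loess moved the higher ones among called probes from 44.9% to 52.4%.

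The following counts of called genes in the lists moved by more than 1.5 times, or to or from 0, and smaller shifts are left out. The filter on all 4 arrays left 1 higher and 0 lower among the other class II genes, and 2 lower epithelial markers. The processed signal gave 1 lower endosomal gene, 1 higher PD-L1 handling gene, and 2 higher and 2 lower epithelial markers. Normexp with the 75th percentile gave 1 lower endosomal gene and 3 lower epithelial markers. A prior with an intensity trend gave 1 lower endosomal gene, 2 lower interferon-γ genes and 2 lower epithelial markers. Cyclic loess gave 1 lower PD-L1 handling gene and 2 higher leukocyte markers, and the unfiltered probes and the values processed by the authors each left 1 lower PD-L1 handling gene. With a sample left out, ranges were 0 to 1 lower for other class II, 1 to 3 lower for ligands, 0 to 1 higher and 1 lower for PD-L1 handling, 0 to 3 higher leukocyte markers, and 3 to 4 higher and 1 to 2 lower epithelial markers.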
